A study of Rattus norvegicus with 12 samples.

Results

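The 34 genes described here encode ATF4, its partner transcription factors and the targets of the integrated stress response, and they were measured by RNA sequencing of rat kidney. They were taken by gene symbol from the annotated table, where each of the 34 symbols had 1 row among 30208 genes. Of these 34 genes 33 had enough reads to be tested, among 14664 genes tested in all. In the integrated stress response, kinases that sense unfolded protein, missing amino acids, lack of haem or double-stranded RNA phosphorylate the translation factor eIF2, which lowers protein synthesis while the mRNA of ATF4 is translated more. ATF4 then drives genes for amino acid synthesis and import, tRNA charging and one-carbon metabolism, and genes that end the response or lead to cell death. Kidney tubules are known to engage this response under ischaemia, toxins and nutrient shortage.

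The libraries came from kidneys of rats given cardiopulmonary bypass (CPB, circulation through a heart-lung machine) with nitrite (CPB+Nitrite, 4 libraries), CPB without nitrite (4 libraries) or a sham procedure (4 libraries). The labels give no dose, duration, sampling time, strain, sex or age, and the title of the series places the study in kidney injury after cardiac surgery. Nothing in the labels states that replicates are separate animals, so each p-value measures only the spread between these samples. Levels are scaled shares of each library's reads (CPM, reads per 1 M reads) from the authors' estimated counts, changes are on the log2 scale with standard errors, and p-values come from the quasi-likelihood test of edgeR, adjusted by Benjamini and Hochberg's method over all 14664 genes with a threshold of 0.05.

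Library totals ran from 16.8 to 25.8 M reads. Proximal tubule markers were abundant in each library, with summed levels of 4125 to 5073 CPM in CPB+Nitrite, 3940.5 to 4866 CPM in CPB and 5898 to 7410.1 CPM in sham, and 4 of the 8 fell in CPB against sham. The CPB+Nitrite 2 library stood apart: its loop of Henle and distal tubule markers summed to 745 CPM against 5099 to 9538 CPM in the other libraries, and its endothelial markers to 816 CPM against 107 to 262 CPM. Its collecting duct markers summed to 4027 CPM, against 781 to 1816 CPM elsewhere, and its podocyte markers to 810 CPM, against 188 to 463 CPM. Its median correlation with its own group was 0.918, against 0.943 to 0.948 in the other CPB+Nitrite libraries. In CPB and sham libraries that correlation was 0.966 to 0.981. Adipocyte markers summed to 398 CPM in sham 1 and to 56.6 to 162 CPM elsewhere. Urothelial markers summed to 166 CPM in sham 1 and 114 CPM in CPB+Nitrite 1, against 0.918 to 28.9 CPM elsewhere. Leukocyte markers summed to 116 to 221 CPM in CPB+Nitrite, 62.6 to 97.9 CPM in CPB and 96.8 to 199.5 CPM in sham. Single leukocyte markers went both ways in CPB against sham, with 3 of 10 higher, 2 lower and a median log2 change of 0.59. Of all genes tested 21.7% were higher and 21.5% lower in that comparison.

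Most of the listed ATF4 response genes were higher in CPB than in sham libraries. Of the 33 tested genes 23 were higher in CPB than in sham kidneys, against 21.7% of all genes tested, and 1 gene, Cth, was lower, against 21.5% of all genes (43.2% in either direction). The median log2 change of the 33 genes was 1.24, and that of all genes tested was -0.05. In 25 of the 33 genes each CPB library lay above each sham library, which 23.5% of all genes did, and in Cth each lay below, as in 24.8% of all genes. In these bulk samples a change in the share of cells of a type and a change in RNA per cell cannot be told apart. Some markers of several cell types were also lower in CPB than in sham, where 21.5% of all genes were. Of the tested markers 4 of 8 fell for proximal tubule, 1 of 5 for loop of Henle and distal tubule. For collecting duct 2 of 6 fell, for fibroblasts, pericytes and smooth muscle 3 of 6 and for adipocytes 2 of 6. Endothelial markers went both ways (2 of 6 higher, 2 lower), as did urothelial ones (1 of 6 higher, 2 lower). No podocyte marker passed. The fibroblast, pericyte and smooth muscle markers summed to 137 to 199.7 CPM in CPB+Nitrite, 56.4 to 108 CPM in CPB and 92.7 to 439.9 CPM in sham, and all 6 had a positive log2 change in CPB+Nitrite versus CPB (median 1.21) with none past the threshold. The part that these markers have in the results was not tested.

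**Figure D1:**
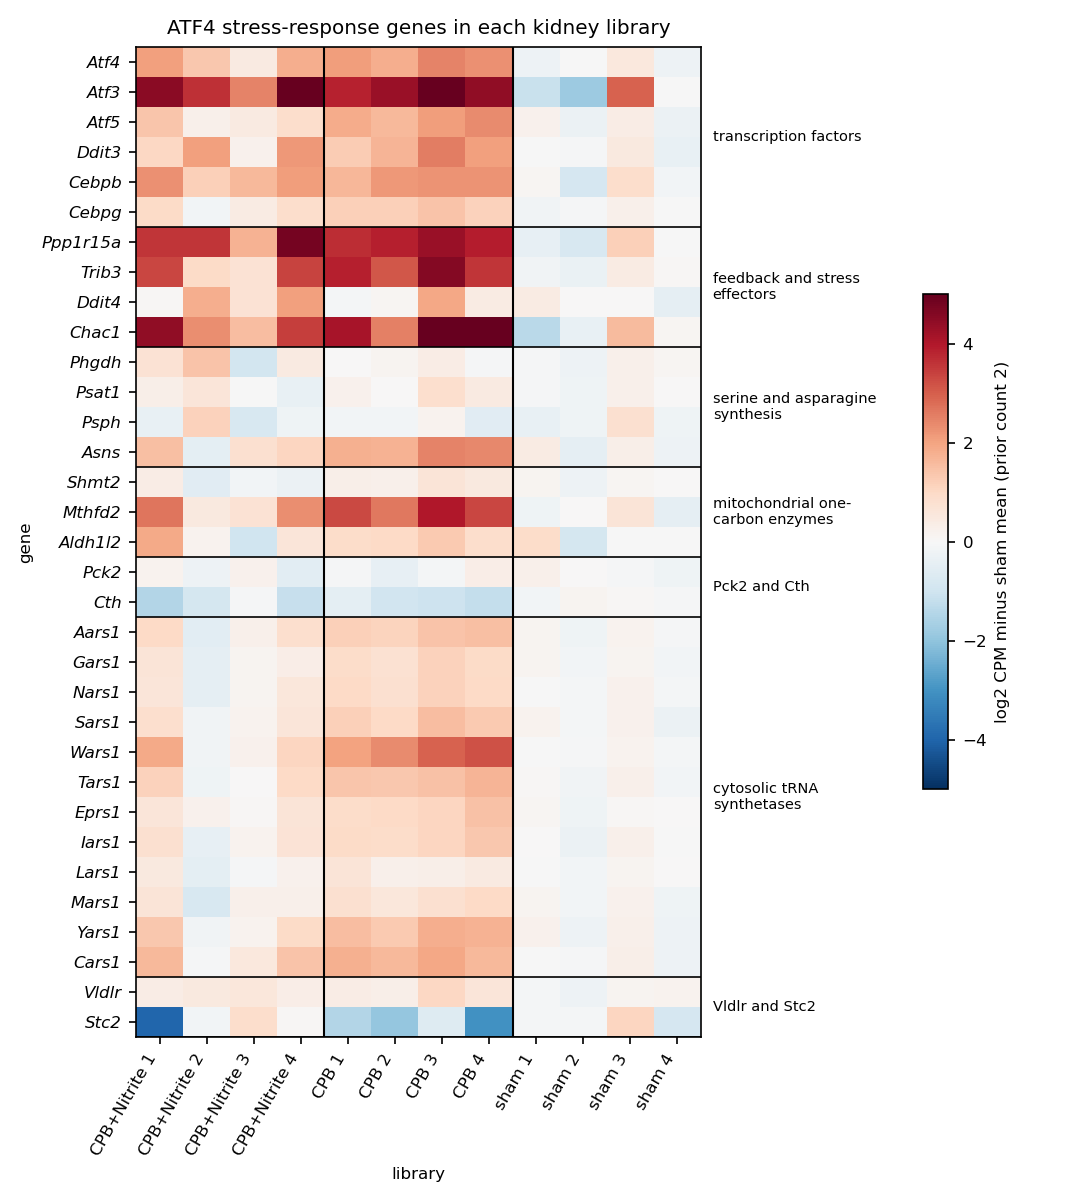
Levels of the 33 tested ATF4 response genes in the 12 libraries, as log2 CPM (prior count 2) minus the sham mean, with red above and blue below that mean and a colour scale that ends at 5. CPB libraries are red in the transcription factors, feedback genes, Asns, Mthfd2 and the tRNA synthetases, CPB+Nitrite 1 and 4 share much of that colour, and CPB+Nitrite 3 is paler.

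Atf4 itself (chr7:111804183-111806446, mRatBN7.2) rose about as far as many of its targets, although the protein is controlled largely at translation, which these data do not measure. It had 628, 382, 204 and 530.4 CPM in CPB+Nitrite, 636, 532, 831 and 739.7 CPM in CPB and 126, 148, 218 and 124 CPM in sham libraries 1 to 4. All CPB libraries lay above all sham libraries, and CPB+Nitrite libraries spread from the sham range into the CPB range. The lowest of them, CPB+Nitrite 3, was below sham 3 and above sham 1, 2 and 4. Atf4 averaged 685 ± 129 CPM in CPB and 154 ± 43.99 CPM in sham kidneys (SD, n = 4 each), a 4.45-fold difference (log2 change 2.15 ± 0.32) with an adjusted p of 0.00107.

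All 6 tested transcription factor genes rose in CPB against sham, where 21.7% of all genes did. Atf5, a relative of ATF4 whose mRNA is also translated under eIF2 phosphorylation, had 127, 57.7, 65.7 and 90.1 CPM in CPB+Nitrite, 176, 152, 205 and 249.7 CPM in CPB and 56.8, 39.4, 63.4 and 39.9 CPM in sham libraries 1 to 4 (log2 change 1.97 ± 0.27, adjusted p = 0.000968). Its CPB libraries lay above all libraries of both other groups. Cebpb and Cebpg encode proteins that pair with ATF4 on DNA. Cebpb had 343, 159.6, 216 and 301 CPM in CPB+Nitrite, 225, 313, 331 and 338 CPM in CPB and 75.2, 39.2, 129.8 and 63.6 CPM in sham libraries 1 to 4 (log2 change 1.97 ± 0.34, adjusted p = 0.00157), and Cebpg averaged 153 ± 14.4 CPM in CPB and 65.1 ± 8.52 CPM in sham kidneys (log2 change 1.24 ± 0.21, adjusted p = 0.00153). Cebpb was above each sham library in each bypass library with or without nitrite, whereas each CPB+Nitrite library had less Cebpg than each CPB library. Ddit3, which encodes CHOP, a factor tied to cell death in prolonged stress, had 64.99, 132, 37.7 and 146 CPM in CPB+Nitrite, 78.1, 105, 188 and 134 CPM in CPB and 31.7, 30.5, 44.9 and 24.5 CPM in sham libraries 1 to 4 (log2 change 1.94 ± 0.40, adjusted p = 0.00336). The CPB+Nitrite libraries of Ddit3 were uneven, with 2 and 4 high and 3 within the sham range. Sham 3 set the top of that range, and CPB+Nitrite 3 lay above sham 1, 2 and 4. The 3′ ends of Ddit3 (chr7:63116380-63121201, plus strand) and Mars1 (chr7:63121142-63138495, minus strand) overlap by 60 bases, and whether the counting used strand is not stated. Atf5 lies wholly within the spans of Nup62 and Il4i1 on the other strand. Atf3, a stress-induced repressor that also answers to many other signals, had 251, 138, 62.5 and 662 CPM in CPB+Nitrite, 159, 221, 401 and 239 CPM in CPB and 4.99, 3.098, 86.6 and 10.7 CPM in sham libraries 1 to 4. Sham 3 stood far above the other sham libraries, and Atf3 still passed the test (log2 change 3.27 ± 1.0, adjusted p = 0.0201). Without sham 4 the adjusted p of Atf3 was 0.054. 

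Nupr1, which encodes a small stress-induced chromatin protein, needs care with its name. The row named Nupr1 lists a non-coding RNA on the plus strand (chr1:181213368-181215281, mRatBN7.2), had 0 to 0.11 CPM in the 12 libraries and was not tested. That span lies wholly within a minus-strand row named Nupr1l1, and RefSeq's table for the build GRCr8 gives Nupr1l1 as a synonym of its protein-coding Nupr1. The Nupr1l1 row, which is not among the 34 genes and was looked up after the values had been seen, had 62.7, 163, 61.9 and 62.5 CPM in CPB+Nitrite, 85.5, 87.6, 141 and 117 CPM in CPB and 14.6, 28.4, 42.7 and 15.1 CPM in sham libraries 1 to 4. All bypass libraries with or without nitrite lay above all sham libraries. Its log2 change was 2.09 ± 0.41 in CPB versus sham (adjusted p = 0.00263), -0.30 ± 0.39 in CPB+Nitrite versus CPB (adjusted p = 0.622) and 1.8 ± 0.41 in CPB+Nitrite versus sham (adjusted p = 0.0391).

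The 3 largest log2 changes in CPB versus sham belonged to Chac1, Trib3 and Ppp1r15a, which act as brakes on the response or in stress damage. Ppp1r15a, which encodes GADD34, the phosphatase subunit that removes the phosphate from eIF2, had 158, 157, 44.5 and 368 CPM in CPB+Nitrite, 170.5, 198, 265 and 202 CPM in CPB and 9.87, 7.604, 30.4 and 13.1 CPM in sham libraries 1 to 4 (log2 change 3.78 ± 0.58, adjusted p = 0.00114). Each bypass library, with or without nitrite, lay above each sham library. Its annotated span lies within that of Nucb1 on the same strand. Ppp1r15a is one of 8 of the 34 genes whose span overlaps that of another annotated gene. Spans include introns, and whether the transcripts themselves share bases was not examined. How any shared bases were counted is not stated. Trib3, a pseudokinase that binds and restrains ATF4, had 21.7, 4.03, 3.43 and 21.96 CPM in CPB+Nitrite, 31.7, 18.3, 50.6 and 24.8 CPM in CPB and 1.82, 1.61, 2.78 and 2.13 CPM in sham libraries 1 to 4 (log2 change 3.91 ± 0.62, adjusted p = 0.00122). CPB+Nitrite 1 and 4 were within the range of the CPB libraries, and CPB+Nitrite 2 and 3 were just above sham. Chac1, which encodes an enzyme that breaks down glutathione, had 24.1, 5.64, 3.18 and 12.3 CPM in CPB+Nitrite, 19.7, 6.31, 91.4 and 39.3 CPM in CPB and 0.372, 0.805, 3.35 and 1.11 CPM in sham libraries 1 to 4 (log2 change 4.79 ± 0.94, adjusted p = 0.00264). The CPB libraries of Chac1 were far apart: CPB 3 had 91.4 CPM and CPB 2 had 6.31 CPM. Ddit4, which encodes the mTORC1 inhibitor REDD1, had 46.6, 159, 73.4 and 188 CPM in CPB+Nitrite, 42.3, 48.3, 170.4 and 59.6 CPM in CPB and 60.3, 45.3, 45.6 and 32.97 CPM in sham libraries 1 to 4. Its groups overlapped and it did not pass the test (log2 change 0.80 ± 0.49, adjusted p = 0.194), with CPB 3, CPB+Nitrite 2 and CPB+Nitrite 4 the 3 highest libraries.

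**Figure D2:**
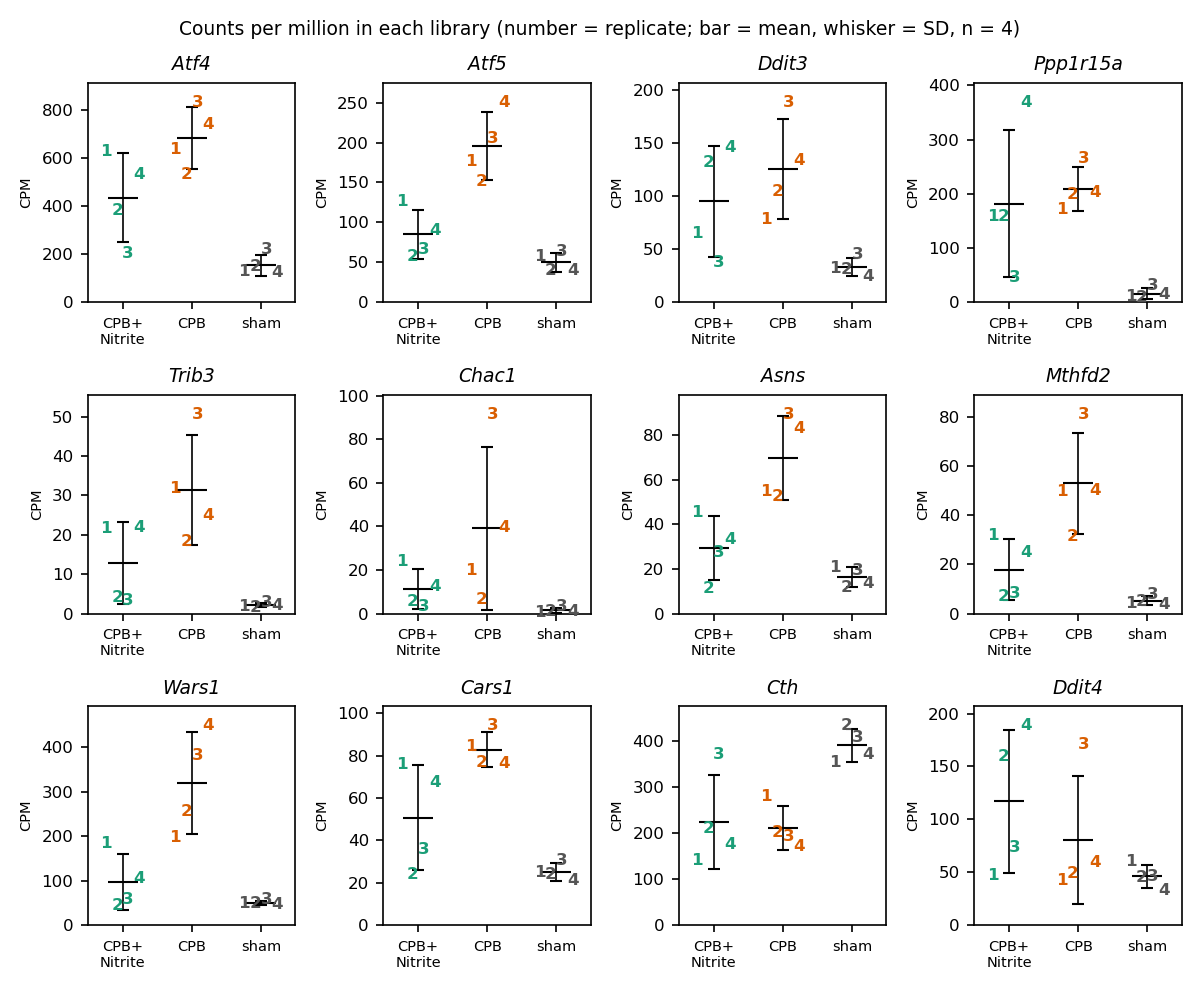
CPM of 12 of the genes in each library (numerals are replicates, horizontal bars the mean, whiskers the SD, n = 4 per group, linear axes from 0). In 10 of the 12 panels all CPB libraries lie above all sham libraries; Cth is the reverse, and the Ddit4 groups overlap.

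ATF4 binds DNA with a C/EBP partner at C/EBP-ATF composite elements, whose core was searched here as TGATGNAA on both strands (TTNCATCA when read from the other strand). The windows were RefSeq promoters of the build GRCr8, from 250 bases before to 50 bases after each gene's start, and 31 of the 34 genes had a window. The core was present in 11 of the 31 windows (35.5%) and in 3.98% of all 33469 windows. Besides the genes named below, the windows of Pck2, which did not pass in CPB versus sham, and of RefSeq's Nupr1 held it. A match is a description of letters and not a bound site. Trib3 (chr3:161275534-161275593, minus strand, ending at the base before the start) and Chac1 (chr3:126795938-126795997, plus strand) are shown because they rose most steeply among the genes with a match, with the match in capitals in this and the later sequences.
Trib3: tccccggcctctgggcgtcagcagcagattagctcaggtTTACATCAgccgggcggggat
Chac1: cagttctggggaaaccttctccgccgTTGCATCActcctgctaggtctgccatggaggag
The core lay at bases -21 to -14 of Trib3 and -167 to -160 of Chac1, counted from the start. No match was found in the windows of Atf4, Atf5, Ddit3, Cebpb, Cebpg, Ppp1r15a, Ddit4, Asns or Mthfd2, which says only that these letters are not in those 300 bases.

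Among genes of amino acid enzymes the rise was uneven: the asparagine synthesis gene Asns rose, and no gene of the serine pathway passed the test. Asns, which makes asparagine from aspartate and glutamine, had 45.4, 11.2, 27.6 and 33.3 CPM in CPB+Nitrite, 54.8, 52.3, 89.3 and 82.9 CPM in CPB and 20.7, 11.6, 19.3 and 13.3 CPM in sham libraries 1 to 4 (log2 change 2.1 ± 0.36, adjusted p = 0.00164). Each CPB library lay above each library of the other groups, and CPB+Nitrite 2 lay just under the lowest sham library. Phgdh, the first enzyme of serine synthesis, averaged 49.4 ± 28.1 CPM in CPB+Nitrite, 34.4 ± 4.72 CPM in CPB and 31.9 ± 4.77 CPM in sham (log2 change of CPB versus sham 0.11 ± 0.34, adjusted p = 0.809). Psat1, the next enzyme of that route, had a log2 change of 0.40 ± 0.22 (adjusted p = 0.155), and Psph, the last, had -0.22 ± 0.39 (adjusted p = 0.664). Groups overlapped for all 3 genes, and the highest Phgdh and Psph libraries were both CPB+Nitrite 2, at 84.9 and 47.2 CPM. In CPB+Nitrite versus sham, Phgdh had a log2 change of 0.24 ± 0.29 without that library and Psph one of -0.53 ± 0.29 (adjusted p = 0.59 and 0.213), against 0.63 ± 0.34 and 0.06 ± 0.39 (adjusted p = 0.249 and 0.931) with it. When CPB+Nitrite 3 was left out instead, Phgdh was called higher in that comparison (log2 change 0.92, adjusted p = 0.0142).

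Mitochondrial one-carbon enzymes, which turn serine into formate and NADPH, were also uneven. Mthfd2 had 31.7, 6.89, 8.08 and 25.03 CPM in CPB+Nitrite, 49.6, 31.3, 81.1 and 50.1 CPM in CPB and 4.25, 5.03, 7.69 and 3.58 CPM in sham libraries 1 to 4 (log2 change 3.36 ± 0.50, adjusted p = 0.00107). All CPB libraries lay far above the sham libraries, CPB+Nitrite 1 reached the CPB range, CPB+Nitrite 4 lay below it, and CPB+Nitrite 2 and 3 were close to the highest sham library. Shmt2, the enzyme that feeds serine into this route, had CPB libraries above each sham library but did not pass the test (log2 change 0.42 ± 0.19, adjusted p = 0.0901). It passed without CPB+Nitrite 2 (adjusted p = 0.0476). Aldh1l2 was scarce, with 0.496 CPM on average in CPB and 0.241 CPM in sham, and its change of 1.01 ± 0.70 did not pass (adjusted p = 0.25).

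Cth, which encodes cystathionine gamma-lyase, the enzyme that makes cysteine from cystathionine and also yields hydrogen sulfide, went the other way. It had 141, 211, 372 and 174 CPM in CPB+Nitrite, 279.6, 201, 192 and 170.4 CPM in CPB and 354, 434, 407 and 372 CPM in sham libraries 1 to 4 (log2 change -0.89 ± 0.27, adjusted p = 0.0178). Every CPB library was below every sham library, and CPB+Nitrite 3 alone among the nitrite libraries reached the sham range. The adjusted p of Cth was 0.050 without CPB 3 and 0.055 without CPB 4. Pck2, the mitochondrial enzyme that makes phosphoenolpyruvate, had a log2 change of -0.05 ± 0.20 (adjusted p = 0.867).

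The largest group was the 12 cytosolic aminoacyl-tRNA synthetase genes, whose enzymes load amino acids onto tRNAs. In CPB against sham 11 of the 12 rose, against 21.7% of all genes. All 12 had CPB libraries above each sham library, against 23.5% of all genes. The log2 changes ran from 0.41 (Lars1, adjusted p = 0.084) to 2.69 (Wars1) with a median of 1.19. Lars1 passed without CPB+Nitrite 2 (log2 change 0.41 ± 0.14, adjusted p = 0.0269). Wars1, for tryptophan, had 184, 43.6, 57.4 and 104 CPM in CPB+Nitrite, 197, 255, 380.4 and 448 CPM in CPB and 48.6, 47.3, 56.3 and 45.7 CPM in sham libraries 1 to 4 (log2 change 2.69 ± 0.41, adjusted p = 0.00107). Wars1 is known to respond to interferon as well as to ATF4. Eprs1, for glutamate and proline, had 239, 181, 164 and 246 CPM in CPB+Nitrite, 296, 316, 335 and 432 CPM in CPB and 169.9, 136, 166 and 161 CPM in sham libraries 1 to 4 (log2 change 1.12 ± 0.17, adjusted p = 0.00114). Cars1, for cysteine, had 75.9, 24.04, 35.5 and 67.2 CPM in CPB+Nitrite, 84.5, 76.7, 94.1 and 76.5 CPM in CPB and 24.7, 23.8, 30.7 and 21.03 CPM in sham libraries 1 to 4 (log2 change 1.73 ± 0.30, adjusted p = 0.00164). The other 8 that rose were Yars1 (1.59 ± 0.29), Tars1 (1.47 ± 0.27), Aars1 (1.31 ± 0.27), Sars1 (1.26 ± 0.22), Iars1 (1.07 ± 0.23), Nars1 (0.99 ± 0.21), Gars1 (0.94 ± 0.20) and Mars1 (0.79 ± 0.24), each with its log2 change in CPB versus sham. Mars1 was the least stable of them, with adjusted p-values of 0.054 to 0.055 when sham 2, sham 4 or CPB 4 was left out.

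The composite element core was found in 7 of the 11 cytosolic synthetase windows, namely those of Aars1, Nars1, Tars1, Iars1, Mars1, Yars1 and Cars1, against 3.98% of all windows. Stretches around 6 of these matches are shown to compare the bases that flank the core. Those of Aars1 (chr19:55908344-55908403, plus strand), Tars1 (chr2:62114803-62114862, minus strand), Iars1 (chr17:15193653-15193712, minus strand) and Mars1 (chr7:65023754-65023813, minus strand) lie before the start, and those of Yars1 (chr5:146820183-146820212, plus strand) and Cars1 (chr1:208225334-208225363, minus strand) just after it.
Aars1: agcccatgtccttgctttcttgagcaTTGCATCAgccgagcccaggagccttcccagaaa
Tars1: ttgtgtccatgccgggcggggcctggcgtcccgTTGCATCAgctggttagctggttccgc
Iars1: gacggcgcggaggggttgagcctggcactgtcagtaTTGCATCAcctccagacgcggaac
Mars1: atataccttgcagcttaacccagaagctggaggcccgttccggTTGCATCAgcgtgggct
Yars1: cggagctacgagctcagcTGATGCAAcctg
Cars1: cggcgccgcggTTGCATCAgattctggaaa
Each of these 6 stretches held the same 8 bases, TTGCATCA, or in Yars1 their reverse complement TGATGCAA, whereas Trib3 had TTACATCA. Aars1 had a second match at bases 10 to 17 after its start. The 7 synthetases with a match had log2 changes of 0.79 to 1.73 in CPB versus sham (median 1.31), and the 4 without one, Sars1, Wars1, Eprs1 and Lars1, had 0.41 to 2.69 (median 1.19), so the ranges overlapped.

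**Figure D3:**
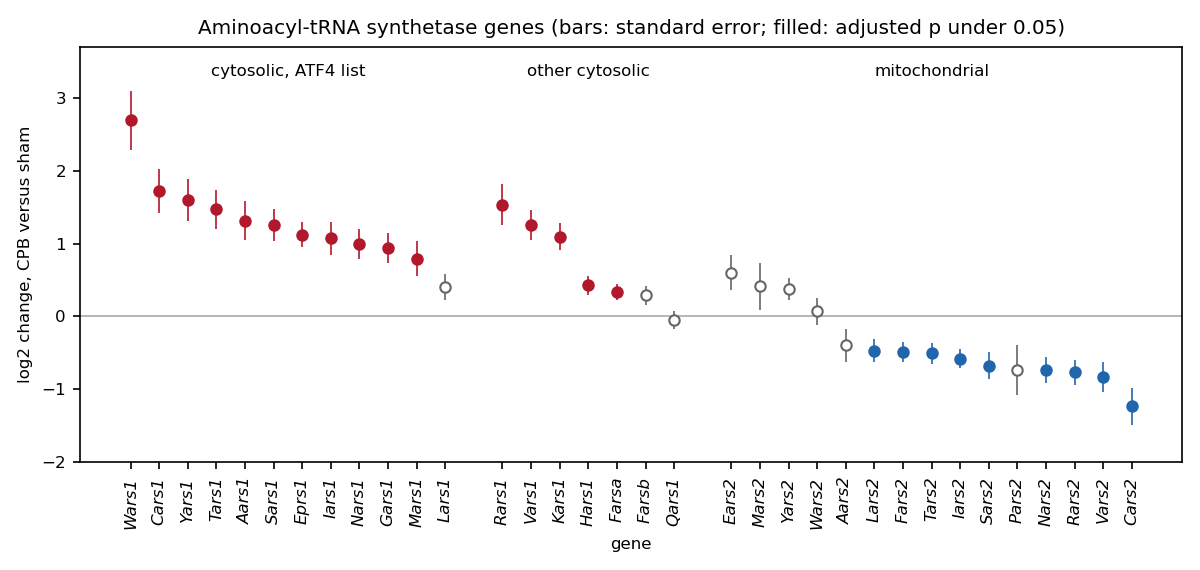
Log2 change in CPB versus sham (points, bars ± standard error, filled where the adjusted p was under 0.05) for 12 cytosolic synthetases of the ATF4 list, 7 other cytosolic and 15 mitochondrial ones. All but Lars1 of the first group are filled and above 0, while 9 of the 15 mitochondrial genes are filled and below 0.

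Of 7 other cytosolic synthetase genes 5 rose in CPB, with Rars1 at 1.54 ± 0.28 (adjusted p = 0.002), Vars1 at 1.26 ± 0.21 and Kars1 at 1.1 ± 0.18 (adjusted p = 0.0014 each). Of 15 tested mitochondrial synthetase genes none rose and 9 fell, among them Cars2 at -1.23 ± 0.26. Of all genes tested 21.7% rose and 21.5% fell in CPB against sham. The median log2 change was 0.43 in the other cytosolic genes and -0.51 in the mitochondrial ones. The core was found in 0 of 6 windows of these other cytosolic genes and 0 of 16 windows of the mitochondrial ones.

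The last 2 genes encode proteins of the cell surface and the secretory route. Vldlr, a lipoprotein receptor, averaged 25.8 ± 2.05 CPM in CPB+Nitrite, 28.96 ± 7.05 CPM in CPB and 19.1 ± 2.64 CPM in sham (log2 change 0.60 ± 0.17, adjusted p = 0.0164 in CPB versus sham). The call on Vldlr was lost when sham 2 or CPB 3 was left out (adjusted p = 0.054 and 0.056). Stc2, a secreted glycoprotein hormone, had 0.465, 7.77, 15.7 and 8.94 CPM in CPB+Nitrite, 3.04, 2.16, 5.49 and 0.938 CPM in CPB and 7.97, 7.97, 18.2 and 4.69 CPM in sham libraries 1 to 4. It passed neither way in CPB versus sham (log2 change -1.73 ± 0.76, adjusted p = 0.0815), and its libraries ranged widely in both bypass groups. Stc2 was called lower there by DESeq2 (adjusted p = 0.038), by limma voom (0.0355) and in an edgeR fit of the 2 groups alone (0.0163). The edgeR fit without CPB+Nitrite 1 also called it lower (adjusted p = 0.019).

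With nitrite the picture was mixed between libraries. In CPB+Nitrite against CPB no gene of the 33 passed the test, and 0% of all genes did, the lowest adjusted p of any gene being 0.056. At an unadjusted p under 0.05, 18 of the 33 genes had a negative log2 change, against 12.2% of all genes, and none a positive one, against 17.3%. DESeq2 called 13 of them lower, against 5.84% of all genes, and limma voom with sample weights called none. Of the 33 genes 27 had a negative log2 change, against 45.9% of all genes, and the median was -0.65, against 0.05 for all genes. In 12 genes each CPB+Nitrite library lay below each CPB library, which 6.27% of all genes did, and 9 of those 12 were tRNA synthetases. The other 3 were Atf5, Cebpg and Asns.

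The genes of the list nearest to the threshold in CPB+Nitrite versus CPB were Atf5 (log2 change -1.2 ± 0.26, adjusted p = 0.0556), Wars1 (log2 change -1.72 ± 0.39, adjusted p = 0.0556), Eprs1 (log2 change -0.73 ± 0.17, adjusted p = 0.0576) and Sars1 (log2 change -0.86 ± 0.22, adjusted p = 0.0584). Sars1 had 224, 112, 139 and 189 CPM in CPB+Nitrite, 281, 248, 361 and 313 CPM in CPB and 139.7, 117, 146 and 101 CPM in sham libraries 1 to 4. All 4 CPB+Nitrite values of Sars1 were under the CPB values, and 2 of them were within the sham range. By contrast Cebpb (log2 change -0.24 ± 0.33, adjusted p = 0.629), Ppp1r15a (log2 change -0.20 ± 0.52, adjusted p = 0.816) and Atf3 (log2 change 0.13 ± 0.91, adjusted p = 0.938) had changes smaller than their standard errors. Leaving out CPB+Nitrite 1 gave 16 members called lower and Stc2 called higher, against 8.67% and 10.6% of all genes. Leaving out CPB+Nitrite 2 gave no call in any gene, a median of -0.48 and 12 members below each CPB library, against 6.99% of all genes.

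**Figure D4:**
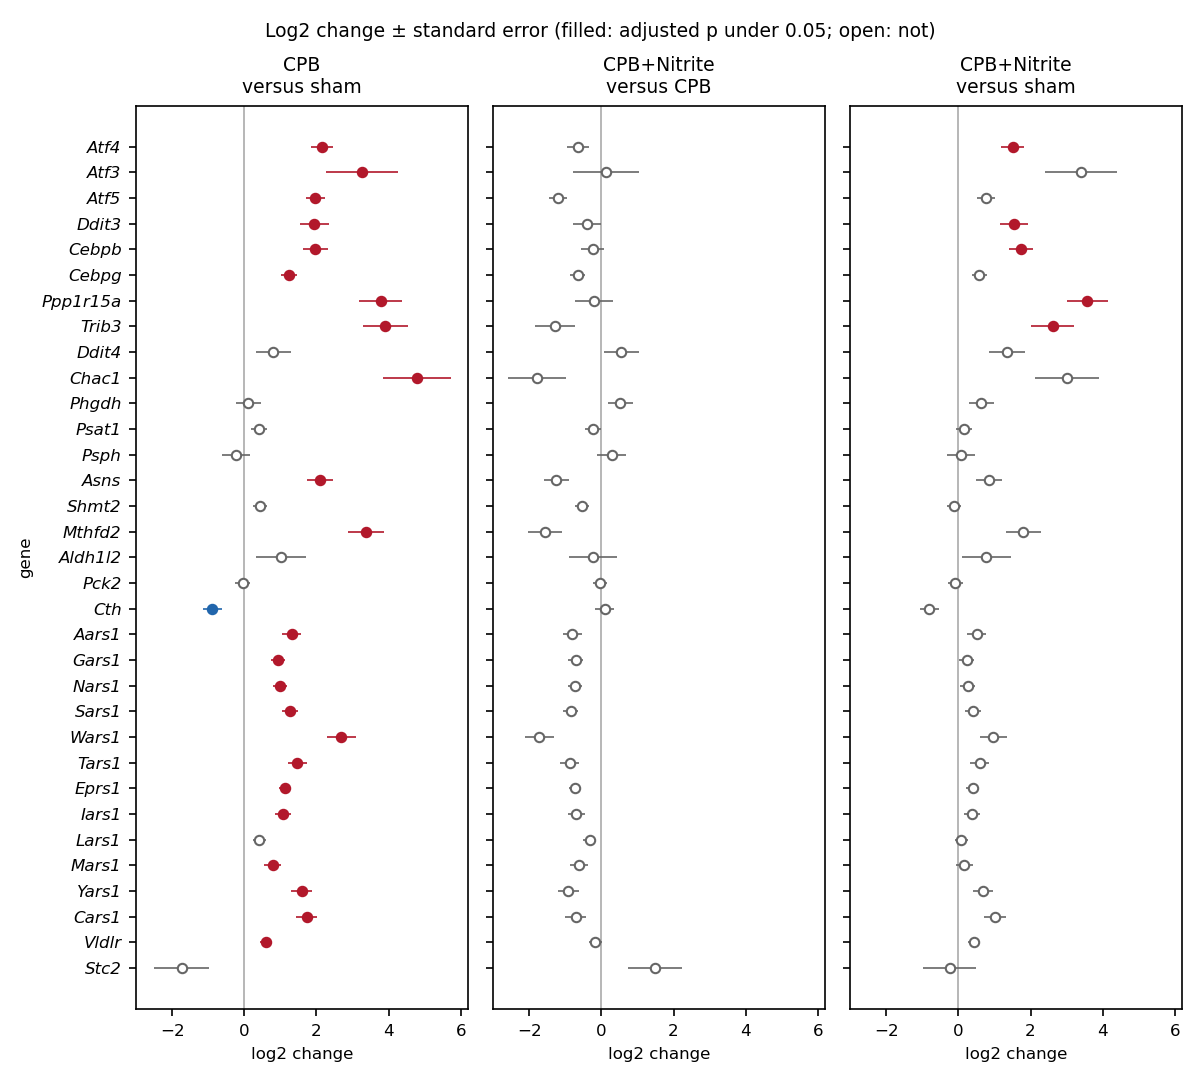
Log2 changes with standard errors for the 33 tested genes in CPB versus sham, CPB+Nitrite versus CPB and CPB+Nitrite versus sham, filled where the adjusted p was under 0.05. The first panel has 24 filled points, the second none and the third 5; the panels share libraries.

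Against sham, CPB+Nitrite kidneys had 5 members higher, against 3.85% of all genes, and none lower, against 0.955% of all genes (4.81% in either direction). The 5 were Ppp1r15a (log2 change 3.58 ± 0.58, adjusted p = 0.0242), Cebpb (log2 change 1.73 ± 0.33, adjusted p = 0.0287), Atf4 (log2 change 1.5 ± 0.31, adjusted p = 0.0313), Trib3 (log2 change 2.61 ± 0.59, adjusted p = 0.0391) and Ddit3 (log2 change 1.54 ± 0.39, adjusted p = 0.0477), all regulators of the response. At an unadjusted p under 0.05, 18 members had a positive change, against 16.3% of all genes. The 12 synthetases had none past the threshold, with log2 changes of 0.08 to 1.02 in CPB+Nitrite versus sham. Without CPB+Nitrite 2, however, 5 of them passed: Cars1, Wars1, Yars1, Tars1 and Aars1, with log2 changes of 0.73 to 1.25. Limma voom called 5 with all libraries, and DESeq2 called 1, Cars1. In 4 genes, Cebpb, Ppp1r15a, Trib3 and Vldlr, each CPB+Nitrite library lay above each sham library, against 5.64% of all genes, and without CPB+Nitrite 2 there were 13 such genes, against 11.7% of all genes. The median log2 change of the 33 genes was 0.59, against 0.04 for all genes. These calls were fragile: none of the 5 passed when sham 1, sham 2, sham 4 or CPB+Nitrite 4 was left out, nor in a fit of these 2 groups alone. Without CPB+Nitrite 2 there were 15 members called higher, against 8.96% of all genes, while Ddit3 no longer passed (adjusted p = 0.0504), and without CPB+Nitrite 3 there were 11, against 10.9%. The comparisons with CPB+Nitrite share libraries with CPB versus sham and are not independent of it.

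The 4 nitrite libraries differed in how many of these genes were above the sham range. They also differed over all genes tested. On the first principal component of those genes, the axis of widest spread, CPB+Nitrite 1 to 4 stood at 43.6, -48.5, -33.1 and 28.5. CPB libraries stood at 47.9 to 72.9 and sham libraries at -73.9 to -37.2. The part that this wider difference has in the counts below was not tested. Of the 33 genes 28 in CPB+Nitrite 1 and 26 in CPB+Nitrite 4 lay above each sham library, where 33.7% and 35.6% of all genes did. In CPB+Nitrite 2 there were 13 and in CPB+Nitrite 3 there were 14, where 35.1% and 21.1% of all genes did. In the CPB libraries the number was 25 to 29, where 34.8% to 37% of all genes did. CPB+Nitrite 3 was within the sham range in 16 genes and below it in 3. Of all genes in that library 21.1% lay above the sham range, 18.9% below it and the rest, the larger part, within it. The Mthfd2 level of CPB+Nitrite 3, above each sham library, was 8.08 CPM against 7.69 CPM in sham 3. Sham 3 had the highest mean level of the 33 genes among the sham libraries, 0.45 log2 units above the sham mean. Sham 1, 2 and 4 stood at -0.04, -0.27 and -0.14. The sham range of each gene includes sham 3.

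CPB+Nitrite 2 was uneven across the roles, and the difference between roles was not tested. Of its 6 transcription factor genes 4, and all 4 feedback and effector genes, were above each sham library. Its Ddit3 (132 CPM), Ppp1r15a (157 CPM), Atf3 (138 CPM) and Ddit4 (159 CPM) were among them. Its Atf5 (57.7 CPM) and Cebpg (59.4 CPM) were within the sham range, and its Trib3 was 4.03 CPM against 2.78 CPM in the highest sham library. Of its 12 synthetase genes, however, 8 lay below each sham library and 1 above, where 34.2% of all genes in that library lay below. All 12 synthetases were above each sham library in CPB+Nitrite 1 and 4, and 5 of 12 in CPB+Nitrite 3. Below each CPB library were 9 synthetases in CPB+Nitrite 1 and 12 in each of CPB+Nitrite 2, 3 and 4, where 21.4%, 37.7%, 30.4% and 25.6% of all genes were. The mean synthetase level, in log2 units above the sham mean, was 0.97, -0.31, 0.17 and 0.72 in CPB+Nitrite 1 to 4, 1.19, 1.09, 1.39 and 1.44 in CPB 1 to 4 and 0.08, -0.15, 0.20 and -0.12 in sham 1 to 4. Feedback and effector genes in the same libraries stood at 2.85, 2.17, 1.18 and 3.42 in CPB+Nitrite, 2.91, 2.41, 4.29 and 3.25 in CPB and -0.37, -0.37, 0.81 and -0.07 in sham. The part that the unusual marker levels of CPB+Nitrite 2 have in these values was not tested.

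**Figure D5:**
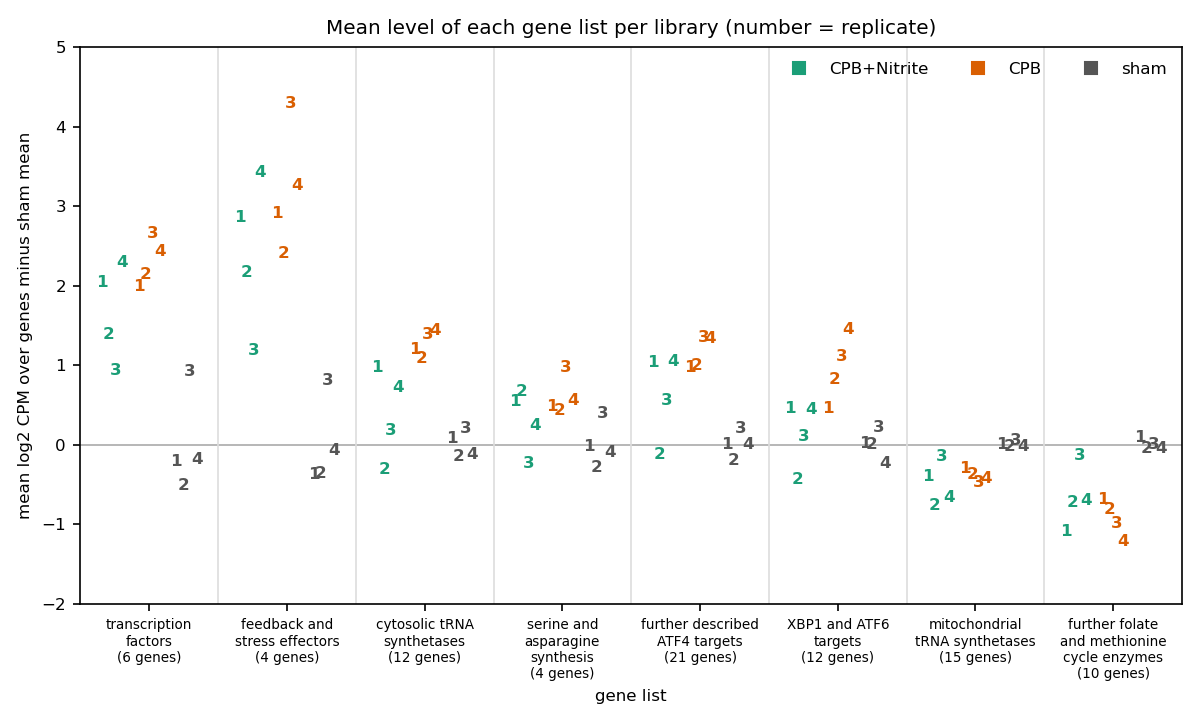
Mean log2 CPM over the genes of each list minus the sham mean, per library (numerals are replicates), for 4 groups of ATF4 response genes and 4 other lists. CPB+Nitrite 2 is at 2.17 in the feedback and effector genes and at -0.31 in the cytosolic synthetases, while all CPB libraries are above all sham libraries in both.

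Of 17 genes upstream of ATF4, for eIF2 kinases, eIF2 and eIF2B subunits and their regulators, 5 rose and 2 fell in CPB against sham (median 0.12), while 43.2% of all genes moved in either direction. Eif2ak2, the kinase PKR that senses double-stranded RNA, rose by 2.45 ± 0.38 (adjusted p = 0.0012), and the eIF2 subunit genes Eif2s1 and Eif2s2 rose by 0.69 ± 0.16 and 0.68 ± 0.16. Oma1 and Dele1, which relay mitochondrial stress to eIF2, fell by 0.79 (adjusted p = 0.0068) and 0.64 (adjusted p = 0.015). Eif2ak3, the kinase PERK of the endoplasmic reticulum, rose by 0.60 ± 0.17 (adjusted p = 0.015), while Eif2ak4, the amino acid sensor GCN2, had -0.38 ± 0.22 (adjusted p = 0.16) and Eif2ak1, the haem-regulated kinase, 0.23 ± 0.13 (adjusted p = 0.15). Messenger levels do not measure the activity of these kinases.

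Other described targets of ATF4 rose in part. Of 21 tested, 12 rose, against 21.7% of all genes, and none fell in CPB (median 0.98). The lowest p-values belonged to the cationic amino acid transporter Slc7a1 (2.53 ± 0.37), the translation repressor Eif4ebp1 (2.30 ± 0.32) and the glycine transporter Slc6a9 (2.56 ± 0.39). In CPB+Nitrite against sham 3 of the 21 were higher, against 3.85% of all genes: Slc7a1 (1.78 ± 0.36), Eif4ebp1 (1.4 ± 0.31) and Gadd45a (1.48 ± 0.36). Targets of XBP1 and ATF6, the other arms of the unfolded protein response, rose in 10 of 12 genes in CPB against sham, where 21.7% of all genes did (median 0.86), including the chaperone gene Hspa5 (1.88 ± 0.39), Manf (1.57 ± 0.30) and Dnajb9 (1.2 ± 0.22). Further enzymes of the folate and methionine cycles fell in 7 of 10 genes, against 21.5% of all genes, and rose in none (median -0.95). Among them were Cbs, which makes the cystathionine that Cth cleaves (-1.28 ± 0.17, adjusted p = 0.00097), Aldh1l1 (-1.16 ± 0.22) and the cytosolic Shmt1 (-1.02 ± 0.19). Cbs and Shmt1 were also lower in CPB+Nitrite than in sham, by log2 changes of -0.74 ± 0.17 and -0.72 ± 0.19.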

How the data were processed

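RNA of 12 rat kidney samples (4 CPB+Nitrite, 4 CPB, 4 sham) was sequenced from directional libraries, per the labels' protocols. Per the submitters' processing notes R 3.5.1, Salmon 1.2.1, cutadapt 1.18 and bcl2fastq 2.19 were used, and the build was mRatBN7.2; the tools' order and options are not given in the sources used here. The deposited values were the authors' estimated counts per gene, and a second deposited table held these as a signal multiplied by 1 factor per library, used here for symbols and as an alternative scaling. Sample titles gave each library's group and replicate number.

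Counts were rounded to whole numbers, filtered with filterByExpr (minimum count 10, 14664 genes with 99.95% of reads) and fitted in 1 model of 12 libraries with TMM factors (0.887 to 1.11) in edgeR 4.0.16 under R 4.3.3 (glmQLFit, glmQLFTest, two-sided, 9 residual degrees of freedom). Totals of 16.8 to 25.8 M reads and 4 libraries per group set the precision. Standard errors came from the F statistic. The fit was tested on simulated data, where it returned the simulated sizes without bias and called most of the large changes but few of the small ones; a first pass rule on the share recovered was narrowly missed and was then replaced by one on bias and false calls. Per-gene levels of all 34 genes are described by role; those named per library include Atf4, Ddit3, Trib3, Chac1, Asns, up to 3 genes per role with the smallest p, and all genes called in the other comparisons. The genes, lists, rules and tests were chosen with earlier results of these data known. Alternatives were DESeq2 1.42.0, limma 3.58.1 (voom), other scalings and filters, a fit of the 2 groups compared alone, the replicate number as a block, and leaving out each library. No pair of libraries of a group agreed within counting noise. A few synthetase genes outside the 34 are not reported here, and counts and medians of those lists are over the others. Promoters came from RefSeq (GRCr8), whose coordinates are not those of mRatBN7.2; among them the Nars1 match is named without its sequence.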

Additional observations from a re-analysis of the deposited data

Results flagged for a closer look

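In 4 of the 99 groups of 4 libraries formed by the 33 tested genes and 3 conditions, 1 library stood apart from the other 3 by Dixon's test at its 95% critical value, which chance passes in about 0.05 of groups. Psph had 47.2 CPM in CPB+Nitrite 2 against 12.2 to 18.2 CPM in the other CPB+Nitrite libraries. Ddit4 had 170.4 CPM in CPB 3 against 42.3 to 59.6 CPM in the other CPB libraries. Atf3 had 86.6 CPM in sham 3 against 3.10 to 10.7 CPM in the other sham libraries. Psph had 37.2 CPM in sham 3 against 16.3 to 18.4 CPM in the other sham libraries.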

How the results depend on the processing

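In CPB versus sham, 665 of 691 recomputed gene values kept both direction and call. Members called higher numbered 21 to 25 and members called lower 0 to 2 when 1 library was left out, with 4692 to 7574 calls over all genes; DESeq2, limma voom and the fit of 2 groups alone called 2 lower. Members with groups apart were 25 to 26 higher and 1 to 2 lower. With total counts alone the median of all genes moved to -0.24 and 34.8% of calls were higher against 50.3%; Phgdh turned to -0.077, while 22 members were still called higher.

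In CPB+Nitrite versus CPB, DESeq2 called 2235 genes (13 members lower) and limma voom 1. Leaving out 1 library gave 0 to 2865 calls, with 0 to 16 members lower and 0 to 1 higher; groups apart were 12 to 19 lower and 0 to 1 higher. Total counts turned Pck2 to 0.082, and voom turned Psph to -0.11, Pck2 to 0.0083 and Cth to -0.035.

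In CPB+Nitrite versus sham, 705 calls became 28 with the replicate block, 0 with 2 groups alone, 2144 with DESeq2 and 2870 with voom; members called higher were 0, 0, 11 and 15, and members lower were 1 with DESeq2 and with voom. Leaving out 1 library gave 0 to 2976 calls, 0 to 15 members higher and 0 to 1 lower; groups apart were 4 to 13 higher and 0 to 1 lower. Total counts turned Lars1 to -0.010, and voom turned Psph to -0.20. The cause of these changes was not tested.

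Leaving out 1 library also turned the sign of changes near 0. The ranges were -0.35 to 0.13 for Psph and -0.19 to 0.067 for Pck2 in CPB versus sham. In CPB+Nitrite versus CPB they were -0.76 to 0.46 for Atf3, -0.80 to 0.12 for Ppp1r15a, -0.31 to 0.49 for Psph, -1.17 to 0.12 for Aldh1l2, -0.17 to 0.11 for Pck2, -0.27 to 0.24 for Cth and -0.27 to 0.0094 for Vldlr. In CPB+Nitrite versus sham they were -0.017 to 0.30 for Psat1, -0.53 to 0.41 for Psph, -0.35 to 0.010 for Shmt2, -0.13 to 1.38 for Aldh1l2, -0.19 to 0.036 for Pck2, -0.092 to 0.23 for Lars1, -0.037 to 0.39 for Mars1 and -0.76 to 0.26 for Stc2.

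Samples with the same replicate number correlated at -0.11 to 0.38 in their deviations, and samples with different numbers at -0.31 to 0.35. These values cannot decide whether the numbers pair samples, which the labels do not say, and the numbers were taken as names. Blocking on the numbers left 23 members higher in CPB versus sham. Depth limited Nupr1, at 3 counts or fewer in each library, and Aldh1l2, at 1 to 24 counts, which was not tested in every alternative.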
